A study of Mus musculus with 8 samples.

Results

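Kinesins are motor proteins that use ATP to move along, or to take apart, microtubules. The kinesin genes were taken from the deposited tables by symbol, as every *Kif* or *Kifc* gene together with *Kifap3*, which gave 36 genes among the 14189 genes listed at either stage. All 36 were listed at both stages and were placed by known function on a mitotic list of 13 genes, a transport list of 15 genes and a list of 8 other kinesins.

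RNA-seq was performed on sympathetic ganglia dissected from mouse embryos at E11.5 and E14.5, with 2 libraries per genotype and 8 libraries in all. At E11.5, *Isl1* CKO embryos (*Wnt1-Cre;Isl1* f/f, labelled Isl1-/- by the submitters) were compared with control embryos (*Wnt1-Cre;Isl1* +/+). Both carried the *Wnt1-Cre* transgene, which drives recombination in the neural crest and its derivatives, and a *Rosa26-tdTomato* reporter, under whose fluorescence the ganglia were dissected. At E14.5, embryos homozygous for a hypomorphic *Isl1* allele (*Isl1* f-neo/f-neo), which lowers *Isl1* in all cells that use the gene and involves no Cre, were compared with wildtype embryos. Ganglia of about 10 embryos of a genotype were pooled at RNA extraction, and each table gives 1 FPKM value (fragments mapped to a gene, scaled to the length of its transcript and to all mapped fragments) per gene and genotype, with both libraries combined. These values allow no replicate check of the differences given here. The p-values that the authors deposited with them were not used, and no test between genotypes was made. FPKM of *Isl1* was 133 in control and 40.0 in CKO ganglia at E11.5, and 162 in wildtype and 83.1 in hypomorphic ganglia at E14.5, so it was lower in both mutants as labelled.

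In dividing cells, mitotic kinesins build the bipolar spindle, bring the chromosomes to its middle, and then organise the midzone at which the daughter cells separate. In neurons, transport kinesins carry vesicles, mitochondria and signalling complexes along the axon towards its tip, and dynein, a motor of another family, carries cargo back to the cell body. Sympathetic neuroblasts are known for dividing after they have switched on neuronal genes, so that both sets of motors can be in use in the same ganglion.

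The promoters of cell cycle genes that peak in mitosis often hold a cell cycle homology region (CHR, here the letters TTTGAA) near the start of transcription and, upstream of it, the CCAAT letters bound by NF-Y. Both were searched on either strand in the RefSeq promoter windows of build GRCm38.p6, each running from 250 bases before to 50 bases after an annotated start. Of the 36 genes, 28 had such a window. The stretch before the start is shown for *Kif11* and *Kif22*, which hold both sets of letters, and for *Kif5c*, the most abundant kinesin in all 4 groups, which holds neither. Each stretch is the 80 bases before the start, on the strand of the gene, and capitals mark the letters found (ATTGG and TTCAAA are the same letters read on the other strand). The *Kif11* stretch is chr19:37376302-37376381 on the plus strand, the *Kif22* stretch is chr7:127042421-127042500 on the minus strand, and the *Kif5c* stretch is chr2:49619206-49619285 on the plus strand.
Kif11: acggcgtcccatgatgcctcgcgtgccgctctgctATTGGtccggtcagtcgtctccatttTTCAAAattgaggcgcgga
Kif22: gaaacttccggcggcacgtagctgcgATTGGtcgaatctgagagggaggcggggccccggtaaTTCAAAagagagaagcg
Kif5c: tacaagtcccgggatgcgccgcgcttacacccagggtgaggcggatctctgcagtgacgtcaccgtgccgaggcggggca

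In the other mitotic kinesins with TTTGAA close to the start, the letters lay just after the start in all but *Kif15*. The 30 bases around them are shown for 7 of these genes to allow the neighbouring letters to be compared, again on the strand of the gene and with the TTTGAA letters in capitals. *Kif20b* held the 6 letters in 2 copies in a row. *Kifc1* and *Kifc5b*, which are near-identical copies of each other, had nearly the same stretch at different distances from their annotated starts. The stretches are chr9:122951050-122951079 (plus) for *Kif15*, chr11:102925104-102925133 (minus) for *Kif18b*, chr19:34922353-34922382 (plus) for *Kif20b*, chr9:61946780-61946809 (minus) for *Kif23*, chrX:100626072-100626101 (plus) for *Kif4*, chr17:33890615-33890644 (minus) for *Kifc1*, and chr17:26917108-26917137 (plus) for *Kifc5b*.
Kif15: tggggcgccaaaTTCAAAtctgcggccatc
Kif18b: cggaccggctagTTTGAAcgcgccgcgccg
Kif20b: gagccgccattgTTTGAATTTGAAaaccgg
Kif23: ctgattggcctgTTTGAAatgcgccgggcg
Kif4: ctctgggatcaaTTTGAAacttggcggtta
Kifc1: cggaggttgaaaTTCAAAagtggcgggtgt
Kifc5b: cggaggttgaaaTTCAAAagtgactggtgt

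The windows cover 12 of the 13 mitotic kinesins with a value, all but *Kif20a*. They cover 10 of the 15 transport kinesins with a value, of which *Kif1a* and *Kif1b* have 2 windows each. TTTGAA was present in 17.9% of all 32851 promoter windows, in 11 of 12 windows of mitotic kinesins with a value, and in 1 of 12 windows of transport kinesins with a value. *Kif18a* was the mitotic gene without it, and the 1 transport window was that of the more downstream of 2 annotated starts of *Kif1a*. From 50 bases before the start to the end of the window, TTTGAA was found in 4.94% of all windows and in 9 of the 12 mitotic ones, a limit that was chosen after the positions had been seen. Both sets of letters were present in 6.95% of all windows, in 8 of 12 mitotic windows and in 0 of 12 transport windows. For other kinesins, including genes without a value, both were present in 2 of 12 windows. In 7 of those 8 mitotic windows the CCAAT letters lay upstream of the TTTGAA letters, with 9 to 46 bases between the first base of one and of the other, and *Kif14* was the exception. TTTGAA and CCAAT overlapped in none of the kinesin windows and in 0.143% of all windows. These matches describe letters and do not show that a factor binds there.

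**Figure D1:**
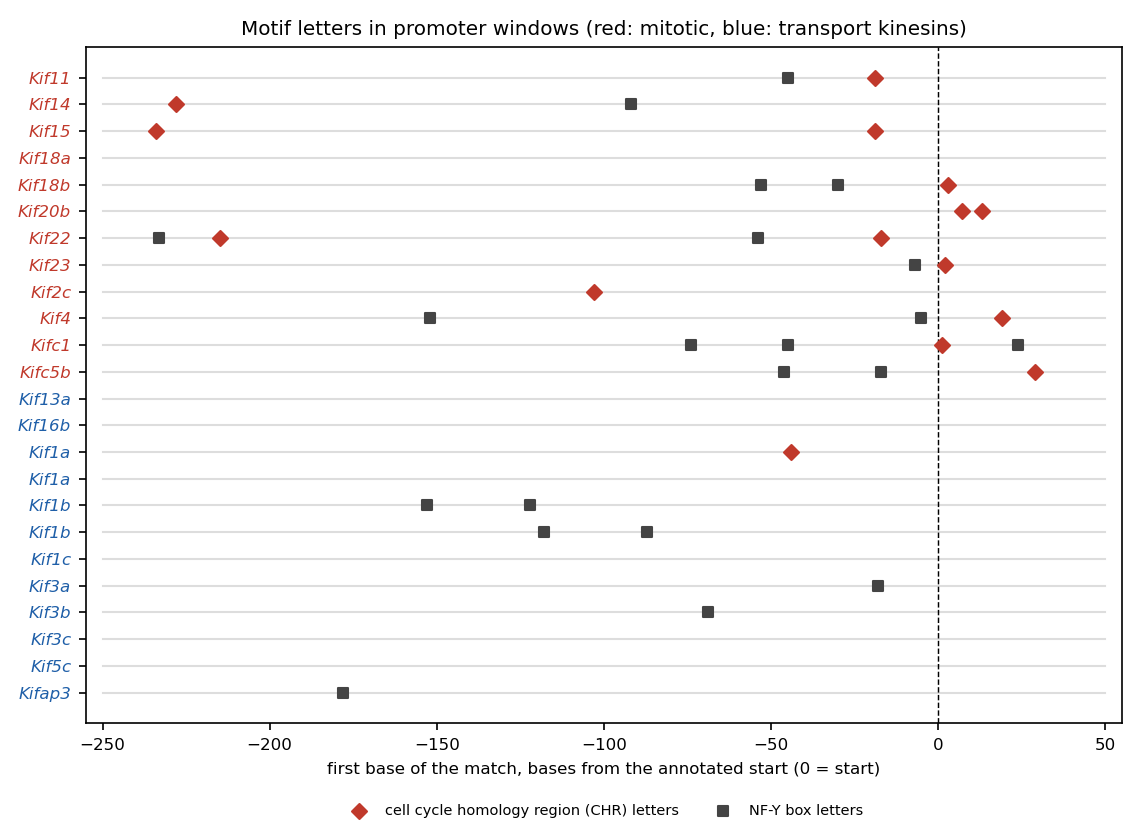
Positions of the CHR letters (red diamonds) and the NF-Y box letters (grey squares) in the promoter windows of mitotic (red names) and transport (blue names) kinesins, as bases from the annotated start, which is the dashed line. Each row is 1 window. In 9 of the 12 mitotic windows a diamond lies no further than 50 bases before the start or after it. This holds for 1 of 12 transport windows and for 4.94% of all windows. The limit of 50 bases was chosen after the positions had been seen, and the 9 include the near-identical copies *Kifc1* and *Kifc5b*.

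At E11.5, all 13 mitotic kinesins were at least 1.5-fold lower in *Isl1* CKO than in control ganglia, where 12.9% of all genes were lower by that much, and 9 of them were at least 2-fold lower, as were 4.83% of all genes. Their median log2 ratio was -1.14, with a range from -1.34 to -0.78, and the median of all genes was 0.05. Ratios throughout are of FPKM + 0.1, mutant over control, and the added 0.1 makes those of weakly expressed genes slightly too small.

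Among the motors that build the spindle, *Kif11*, the kinesin that slides antiparallel microtubules apart and so separates the spindle poles, was the most abundant mitotic kinesin in control ganglia. Its FPKM was 55.5 in control and 21.9 in CKO ganglia, 2.53-fold lower, and only 2.64% of all genes had a lower ratio. *Kif15*, which helps to keep the spindle bipolar, was at 20.9 in control and 8.74 in CKO ganglia (log2 ratio -1.25). *Kifc1*, a minus-end directed motor that gathers microtubules at the poles, was at 19.97 and 10.3 (-0.94). Its near-identical copy *Kifc5b* was at 7.84 and 3.61 (-1.10). The authors kept uniquely mapped reads, so reads shared by the pair, or by *Kif4* and its copies, may be missing from these values.

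The kinesins that set microtubule length and move chromosomes were lower by similar amounts. *Kif2c*, which takes apart microtubules at centromeres, had an FPKM of 33.1 in control and 14.9 in CKO ganglia (log2 ratio -1.14). *Kif18a*, which damps the movements of chromosomes on the spindle, was at 12.1 and 5.53 (-1.12), and *Kif18b*, which limits astral microtubules, was at 19.98 and 8.81 (-1.17). The chromokinesin *Kif4*, which binds chromosome arms and later the midzone, was at 26.1 and 10.7 (-1.28), and the chromokinesin *Kif22*, which pushes the arms towards the spindle middle, was at 44.6 and 24.5 (-0.86).

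The motors of the midzone and of cytokinesis were spread widely over the range. *Kif23*, the kinesin of the centralspindlin complex, stood at 27.5 FPKM in control against 15.9 in CKO ganglia, and with a log2 ratio of -0.78 it lay closest to 0 of the 13. *Kif20a*, which brings the Aurora B complex to the midzone, was at 40.99 and 22.6 (-0.86). *Kif20b*, which acts in the final separation of the daughter cells, was at 15.0 and 6.02 (-1.30). *Kif14*, which holds citron kinase at the midbody, was the least abundant mitotic kinesin, at 5.24 and 2.01, and its log2 ratio of -1.34 was -1.05 with a pseudocount of 1.

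**Figure D2:**
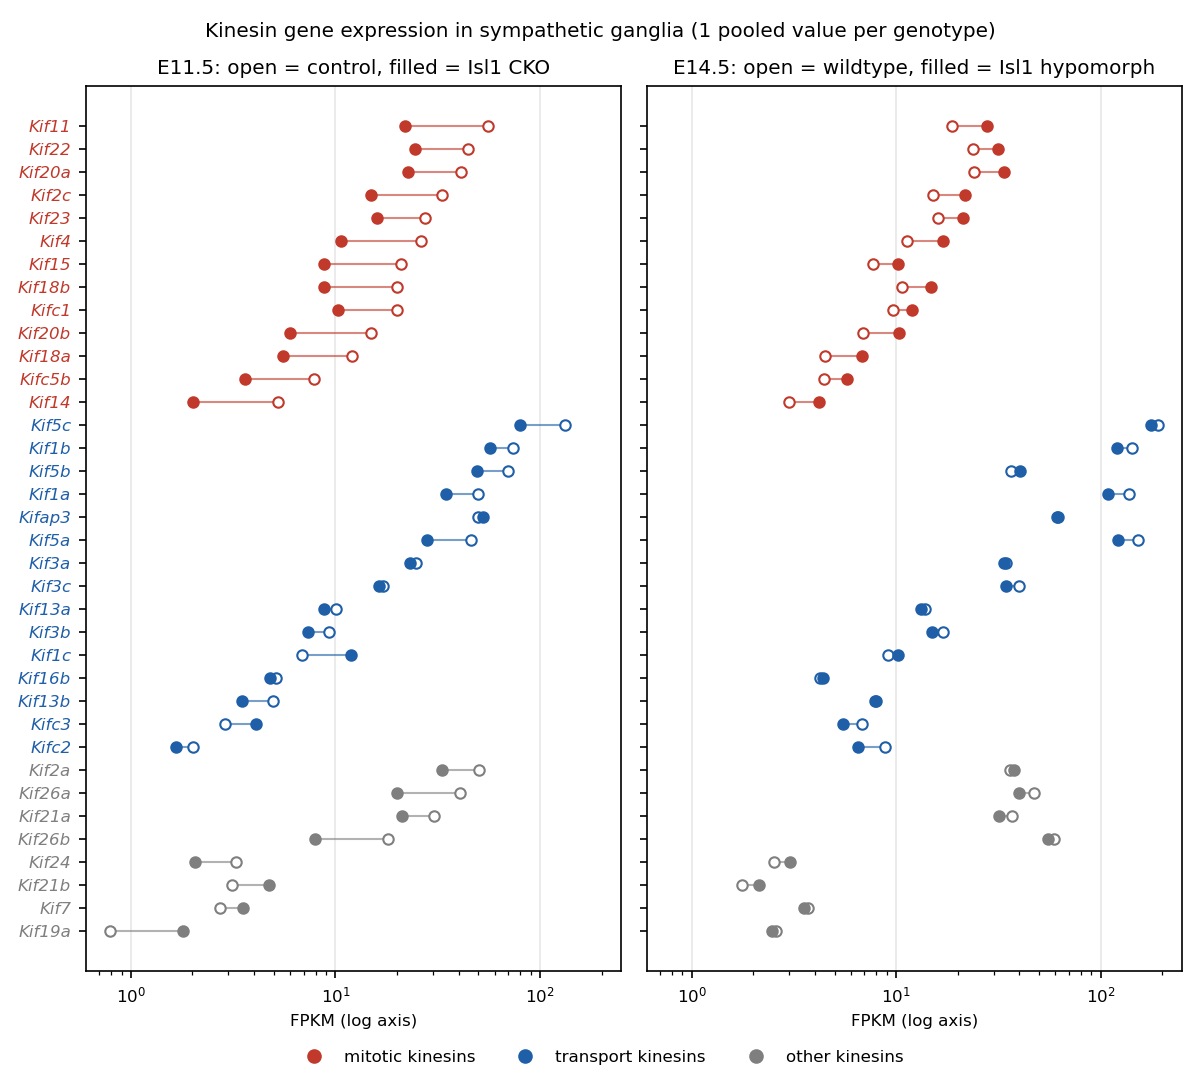
FPKM (log axis) of the 36 kinesin genes in control or wildtype (open circles) and *Isl1* mutant ganglia (filled circles) at E11.5 (left) and E14.5 (right), as 1 pooled value per genotype, coloured by list. For all 13 mitotic kinesins the filled circle lies to the left of the open one at E11.5 (*Kif11*, 55.5 and 21.9) and to its right at E14.5 (18.7 and 27.6).

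The transport kinesins were closer to their control values at E11.5 and lay on both sides of them. Past 1.5-fold, 2 of the 15 genes were lower and 1 was higher in CKO ganglia, beside 12.9% and 18.9% of all genes. By sign alone, 12 were lower and 3 higher, where 46.1% and 53.9% of all genes were. At 1.2-fold, 8 were lower and 2 higher, where 27.5% and 34.8% of all genes were. Their median log2 ratio was -0.27, so the mitotic median was lower than the transport median by 0.87 log2 units, and the lowest transport ratio (-0.73) lay above the highest mitotic ratio (-0.78).

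Kinesin-1, the motor of fast axonal transport, has 3 heavy chain genes, of which *Kif5a* and *Kif5c* are enriched in neurons and *Kif5b* is used in most cells. *Kif5c* was the most abundant of the 36 kinesins in every group, with an FPKM of 132 in control and 79.5 in CKO ganglia (log2 ratio -0.73). *Kif5a* was at 46.2 and 28.0 (-0.72), and these were the 2 transport kinesins past 1.5-fold. *Kif5b* was at 69.4 and 49.1 (-0.50). The shares of the 3 genes in their summed FPKM stayed close together, with *Kif5c* at 53.3% in control and 50.8% in CKO ganglia, *Kif5b* at 28.0% and 31.3%, and *Kif5a* at 18.7% and 17.9%.

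In the kinesin-3 family, *Kif1a*, which carries the precursors of synaptic vesicles, had an FPKM of 49.8 in control and 34.5 in CKO ganglia (log2 ratio -0.53). *Kif1b*, whose forms carry mitochondria and synaptic vesicle precursors, was at 74.1 and 57.1 (-0.38). *Kif1c*, a widely expressed vesicle motor, went the other way, from 6.84 to 11.9 (0.79), and was the 1 transport kinesin at least 1.5-fold higher. *Kif13b* was at 4.94 and 3.49 (-0.49), *Kif13a* was at 10.02 and 8.82 (-0.18), and the endosome motor *Kif16b* was at 5.14 and 4.76 (-0.11). Within a single family the genes thus ranged from lower to higher in CKO ganglia.

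Kinesin-2 is made of *Kif3a* with either *Kif3b* or *Kif3c*, and of the accessory subunit *Kifap3* that binds cargo. Its subunits were among the kinesins nearest to their control values. *Kif3a* had an FPKM of 24.8 in control and 23.0 in CKO ganglia (log2 ratio -0.10), *Kif3c* was at 17.0 and 16.4 (-0.05), and *Kif3b* was at 9.33 and 7.31 (-0.35). *Kifap3* was at 49.7 and 52.6 (0.08, or -0.16 when the values were rescaled without erythroid genes). The minus-end directed *Kifc3* was at 2.89 and 4.09 (0.49) and *Kifc2* at 2.02 and 1.65 (-0.27), so the weakly expressed members of the list also lay on both sides of 0.

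Among the 8 other kinesins, 4 were lower and 2 were higher in CKO ganglia by 1.5-fold or more at E11.5, beside 12.9% and 18.9% of all genes. Their median log2 ratio was -0.56. *Kif26b* (18.1 in control, 7.95 in CKO, log2 ratio -1.18) and *Kif26a* (40.8 and 20.04, -1.02), atypical kinesins that act in signalling and bind microtubules without moving along them, were lower by as much as the mitotic list. *Kif2a*, which takes apart microtubules at spindle poles and in growing axons, was at 50.6 and 33.1 (-0.61), and *Kif24*, which acts on centriolar microtubules, was at 3.27 and 2.06 (-0.64). *Kif21a*, which restrains microtubule growth in axons, was at 30.3 and 21.1 (-0.52), whereas its relative *Kif21b* was at 3.12 and 4.74 (0.59). *Kif19a*, which shortens the microtubules of motile cilia, was at 0.792 and 1.79 (1.08), the highest ratio of the 36 and the lowest level in control ganglia. Genes were listed only at an FPKM of 1 or more in at least 1 genotype. *Kif19a* was listed at E11.5 only through its CKO value, which fixed its direction, and it is 1 of the 2 counted as higher. *Kif7*, a regulator of Hedgehog signalling in cilia, was at 2.74 and 3.53 (0.35). It was not 1.5-fold apart at either stage and is named in addition.

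The CKO samples also differed from control samples in markers of other cells, and in bulk tissue fewer cells of a type cannot be told apart from less RNA per cell. The summed FPKM of 10 sympathetic neuron markers was 3012 in control and 2675 in CKO ganglia at E11.5, with 2 of the 10 higher and the other 8 lower. All 9 neural crest and glial markers were at least 1.5-fold higher in CKO ganglia (sum 268 and 595), beside 18.9% of all genes. All 8 mesenchyme markers were higher, 5 of them by at least 1.5-fold (sum 579 and 1008). All 6 endothelial markers were higher too (sum 55.3 and 71.0). By sign alone, 53.9% of all genes were higher and 46.1% lower. Of 9 erythroid markers listed, 8 were at least 1.5-fold higher, and the ninth, *Hbb-y*, was the most abundant in control ganglia (7552) and was listed at 0 in CKO ganglia. The share of the 9 markers in all FPKM was 2.28% for control and 11.2% for CKO ganglia, and without *Hbb-y* the control share was 0.711%. The part of these markers in the kinesin values was not tested.

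The FPKM of all genes other than the erythroid markers summed to 465407 in control and to 548228 in CKO ganglia. The values were therefore also rescaled so that these sums were equal, which lowers the CKO values. This moved the median of all genes to -0.18 and turned 1746 lower and 2552 higher genes into 3037 lower and 1648 higher ones. The mitotic list stayed at 13 of 13 lower with a median of -1.38, and the transport list went to 6 lower and 0 higher of 15 with a median of -0.49. Ratios taken within 1 sample do not depend on this scaling. The summed FPKM of the transport list was 1.53 times that of the mitotic list in control ganglia (504 and 329) and 2.46 times in CKO ganglia (382 and 156), a 1.60-fold higher ratio. *Kif5c* exceeded *Kif11* by 2.38 times in control and by 3.64 times in CKO ganglia.

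At E14.5 the mitotic kinesins differed in the opposite direction. All 13 were higher in hypomorphic than in wildtype ganglia, by a median log2 ratio of 0.47 and within a narrow range from 0.31 to 0.60, where the median of all genes was 0.003. At 1.5-fold only *Kif18a* passed, and 2.89% of all genes were higher by that much. At 1.2-fold all 13 passed, against 12.2% of all genes.

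*Kif11* had an FPKM of 18.7 in wildtype ganglia and of 27.6 in hypomorphic ones (log2 ratio 0.56), and 96.9% of all genes had a lower ratio. The other spindle builders were *Kif15* at 7.70 and 10.2 (0.40), *Kifc1* at 9.64 and 12.01 (0.31), and *Kifc5b* at 4.46 and 5.76 (0.36). These 3 had the ratios closest to 0 on the mitotic list, together with *Kif23*. *Kif18a* was at 4.46 and 6.84 (0.60), *Kif4* at 11.3 and 17.0 (0.58), *Kif2c* at 15.1 and 21.7 (0.52), *Kif18b* at 10.7 and 14.8 (0.46), and *Kif22* at 23.6 and 31.5 (0.41).

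Of the midzone motors, *Kif20a* was the most abundant mitotic kinesin of this stage, with an FPKM of 24.1 in wildtype ganglia against 33.7 in the hypomorph (log2 ratio 0.48). *Kif20b* was at 6.89 and 10.3 (0.57), *Kif23* at 16.1 and 21.2 (0.40), and *Kif14* at 2.99 and 4.18 (0.47).

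No transport kinesin was 1.5-fold apart at E14.5, where 2.12% of all genes were lower and 2.89% higher by that much. The median log2 ratio of the 15 was -0.10, and the highest of them (0.17) lay below the lowest mitotic ratio (0.31). At 1.2-fold 4 genes were lower, where 9.01% of all genes were, and 0 were higher. These were *Kifc2* (8.80 in wildtype, 6.51 in the hypomorph, log2 ratio -0.43), *Kif1a* (137 and 108, -0.35), *Kif5a* (152 and 121, -0.33) and *Kifc3* (6.81 and 5.50, -0.30). *Kif1a* and *Kif5a* are main motors of axons and were among the 4 most abundant kinesins of the stage.

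The remaining transport kinesins lay between -0.24 and 0.17. *Kif5c* had an FPKM of 189.7 in wildtype ganglia against 177 in the hypomorph (log2 ratio -0.10), and *Kif1b* was at 142 and 120.3 (-0.24). *Kif5b*, the widely used heavy chain, was at 36.5 and 40.4 (0.15) and *Kif1c* at 9.13 and 10.3 (0.17), the 2 highest ratios of the list. For kinesin-2, *Kif3a* was at 34.6 and 33.5 (-0.04), *Kif3b* at 16.9 and 15.0 (-0.17), *Kif3c* at 39.8 and 34.6 (-0.20), and *Kifap3* at 61.1 and 61.9 (0.02). *Kif13a* was at 13.9 and 13.2 (-0.07), *Kif13b* at 7.88 and 7.94 (0.01), and *Kif16b* at 4.26 and 4.39 (0.04).

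The 8 other kinesins included 0 that were 1.2-fold apart at E14.5, where 9.01% of all genes were lower and 12.2% higher. *Kif26a* and *Kif26b*, which were more than 2-fold lower at E11.5, were at 47.1 and 39.8 (log2 ratio -0.24) and at 58.9 and 55.3 (-0.09). *Kif2a* was at 36.04 and 37.7 (0.06), *Kif21a* at 36.7 and 32.0 (-0.20), *Kif21b* at 1.77 and 2.13 (0.26), *Kif24* at 2.54 and 3.03 (0.25), and *Kif19a* at 2.58 and 2.46 (-0.06). The difference of *Kif19a* at E11.5, where it was listed only through its CKO value, had no counterpart of that size at E14.5.

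Beside these values, 8 of 9 neural crest and glial markers and all 8 mesenchyme markers were higher in hypomorphic than in wildtype ganglia. So were all 6 endothelial markers and 10 of 11 erythroid markers, and 7 of 10 sympathetic neuron markers were lower. By sign alone, 50.7% of all genes were higher and 49.3% lower. The sums in wildtype and hypomorphic ganglia were 457 and 523 for neural crest and glial, 1409 and 1570 for mesenchyme, 68.6 and 97.4 for endothelial, and 5251 and 4381 for sympathetic neuron markers. Erythroid markers made up 1.26% and 1.55% of all FPKM. Their part in the kinesin values was not tested. The hypomorph values were also rescaled to the wildtype sum without erythroid genes, which raises them by a factor of 1.02. All 13 mitotic kinesins were then still higher, with 4 of them past 1.5-fold, beside 441 of all 13413 genes.

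**Figure D3:**
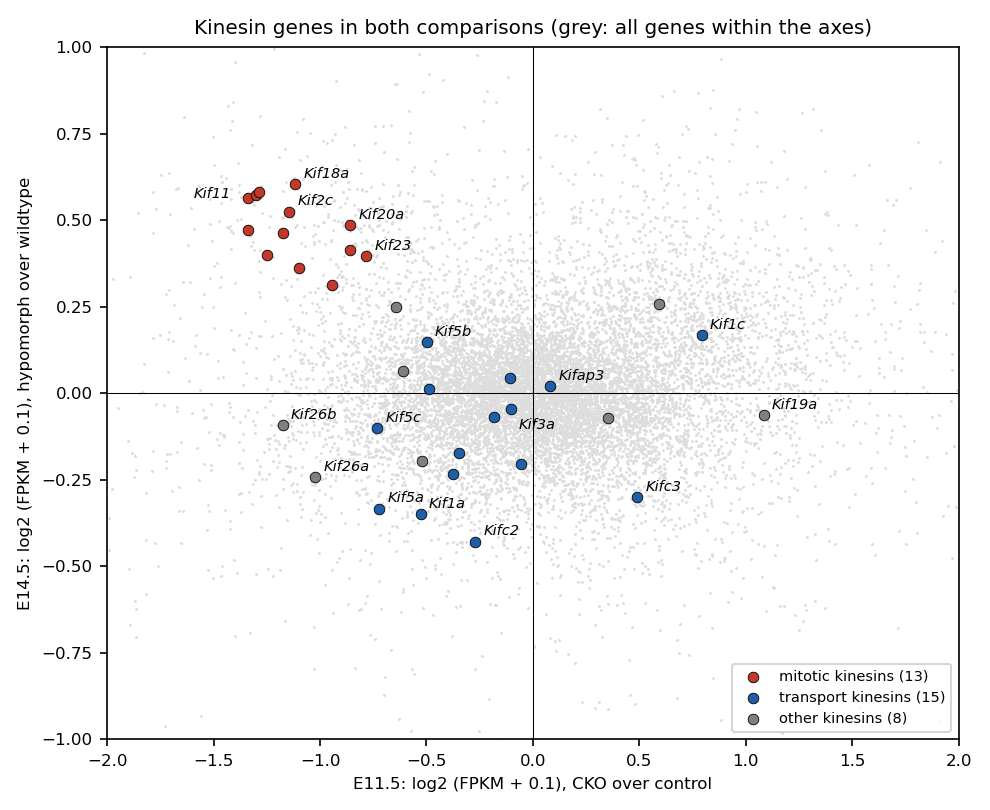
Log2 ratio of FPKM + 0.1, CKO over control at E11.5 (horizontal) and hypomorph over wildtype at E14.5 (vertical), for mitotic (red), transport (blue) and other kinesins (dark grey), with all other genes inside the axes in light grey. All 13 mitotic kinesins lie at the upper left, between -1.34 and -0.78 on the horizontal and 0.31 and 0.60 on the vertical axis, and no transport kinesin lies among them.

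Of the genes listed at both stages, 23.7% were lower in CKO ganglia at E11.5 and higher in hypomorphic ganglia at E14.5, taken by sign alone. This was the case for 13 of 13 mitotic kinesins, 3 of 15 transport kinesins and 2 of 8 other kinesins. The 3 transport kinesins were *Kif5b*, *Kif13b* and *Kif16b*, and the ratios of *Kif13b* and *Kif16b* at E14.5 were no more than 0.04. The transport kinesins were most often lower in both comparisons, with 9 of 15 against 23.8% of all genes. The comparisons differ in both the allele and the stage, so the share of each in this difference cannot be told apart.

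Control ganglia of both stages were set side by side, with the limit that the 2 tables were normalised separately and that the median of all genes was higher by 0.24 log2 units at E14.5. The E11.5 controls carried *Wnt1-Cre* and the reporter and were dissected under its fluorescence, whereas the E14.5 controls were wildtype. Stage cannot be told apart from these differences. All 13 mitotic kinesins were lower in E14.5 wildtype than in E11.5 control ganglia, by a median of -1.04, and *Kif11* differed most (55.5 and 18.7, log2 ratio -1.57). Of the 15 transport kinesins 13 were higher, by a median of 0.66 over the list. By sign alone, 4562 of the 12728 genes listed at both stages were lower and 8160 were higher at E14.5. The log2 ratio was 1.72 for *Kif5a*, 1.46 for *Kif1a*, 1.22 for *Kif3c* and 2.07 for the weakly expressed *Kifc2*, all higher at E14.5. *Kif5b* was lower at E14.5, at 36.5 against 69.4 (-0.93), and *Kif16b* was slightly so (-0.27). *Kif26b* had an FPKM of 18.1 at E11.5 and 58.9 at E14.5 (1.70) and was the sixth most abundant kinesin of the later stage.

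Put as shares of all kinesin FPKM, mitotic kinesins made up 33.5% in E11.5 control, 24.6% in E11.5 CKO, 12.9% in E14.5 wildtype and 18.8% in E14.5 hypomorphic ganglia. Transport kinesins made up 51.3%, 60.5%, 71.4% and 65.9% in the same order. The ratio of summed transport to summed mitotic FPKM was 5.53 in wildtype (861 and 156) and 3.50 in hypomorphic ganglia (759 and 217), 1.58-fold lower in the mutant, whereas at E11.5 it was higher in the mutant. *Kif5c* exceeded *Kif11* by 10.2 times in wildtype and by 6.399 times in hypomorphic ganglia.

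The make-up of kinesin-1 differed more between the controls of both stages than between genotypes. *Kif5a* held 18.7% of the summed FPKM of the 3 heavy chains in E11.5 control and 40.2% in E14.5 wildtype ganglia, and *Kif5b* held 28.0% and 9.64%, while *Kif5c* stayed at 53.3% and 50.1%. In hypomorphic ganglia *Kif5a* held 35.7%, *Kif5b* 11.9% and *Kif5c* 52.3%. The comparison of stages and that of genotypes share the E14.5 wildtype value, so that they are not independent. For kinesin-2, *Kif3a* exceeded its partner *Kif3b* by 2.65 and 3.15 times at E11.5 and by 2.05 and 2.24 times at E14.5, in control and mutant ganglia respectively, and *Kifap3* exceeded *Kif3a* by between 1.77 and 2.28 times in the 4 groups.

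**Figure D4:**
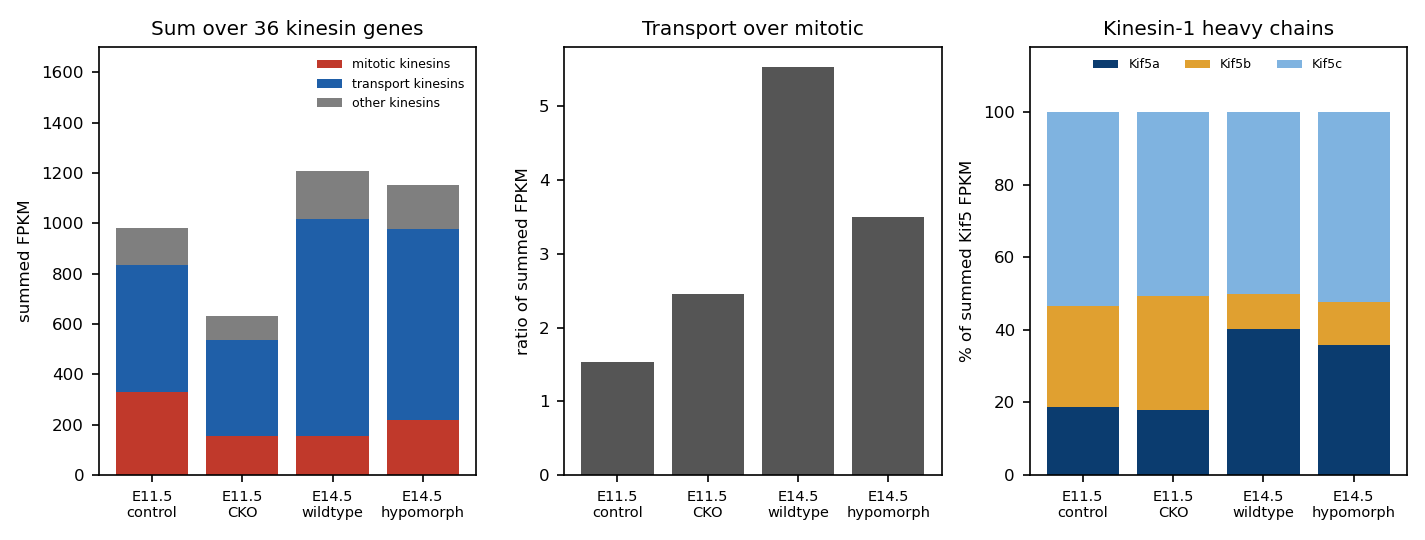
Summed FPKM of the 3 kinesin lists (left), the ratio of the transport to the mitotic sum (middle), and the share of each kinesin-1 heavy chain in their summed FPKM (right), as 1 pooled value per genotype with no error bars. The ratio is 1.53 in control and 2.46 in CKO ganglia at E11.5, and 5.53 in wildtype and 3.50 in hypomorphic ganglia at E14.5.

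Proteins that work with mitotic kinesins followed the same directions. Of 18 such genes, 15 were at least 1.5-fold lower and 0 higher in CKO ganglia at E11.5, beside 12.9% and 18.9% of all genes, with a median log2 ratio of -0.92. At E14.5, 2 of them were higher and 0 lower by that much in hypomorphic ganglia, beside 2.89% and 2.12% of all genes, with a median of 0.47. *Cenpe*, a kinetochore kinesin whose symbol lies outside the *Kif* rule, had an FPKM of 25.2 in control and 12.5 in CKO ganglia (-1.01), and 8.54 in wildtype and 11.99 in hypomorphic ganglia (0.48). *Ect2*, which binds centralspindlin and starts the cleavage furrow, was at 35.2 and 16.1 at E11.5 (-1.12) and at 14.2 and 21.9 at E14.5 (0.62). The spindle protein *Hmmr* was at 35.2 and 13.1 (-1.42) and then at 11.4 and 17.3 (0.59), and *Mki67*, which coats mitotic chromosomes, was at 97.2 and 28.5 (-1.77) and then at 41.7 and 60.3 (0.53). *Birc5*, a subunit of the Aurora B complex, differed least of the 18 at E11.5, at 97.4 and 75.4 (-0.37), and was at 42.5 and 57.3 at E14.5 (0.43). In the promoter windows of these partners, TTTGAA was found in 12 of 17, beside 17.9% of all windows. Both sets of letters were found in 11 of 17, beside 6.95% of all windows. The 17 windows belong to 15 of the 18 genes, of which 10 held TTTGAA and 9 held both.

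Of the kinesin light chains and cargo adaptors, 1 of 18 was at least 1.5-fold lower and 1 higher at E11.5, beside 12.9% and 18.9% of all genes, and the median log2 ratio was -0.05. At E14.5 none of 19 passed 1.5-fold, but 16 of 19 ratios were below 0, beside 49.3% of all genes. The median was -0.14, just under the first quartile of all genes (-0.11). At 1.2-fold, 6 of the 19 were lower and 1 higher, beside 9.01% and 12.2% of all genes. *Klc1*, the main light chain of kinesin-1 in neurons, had an FPKM of 169.7 in control and 124.6 in CKO ganglia (-0.45), and 427 in wildtype and 355 in hypomorphic ganglia (-0.27). *Mapk8ip3*, an adaptor that links kinesin-1 to vesicles and JNK, was at 36.4 and 20.1 at E11.5 (-0.85) and at 73.4 and 64.9 at E14.5 (-0.18). *Arl8a*, a lysosome GTPase that recruits kinesins, was at 49.8 and 54.8 at E11.5 (0.14, or -0.10 when rescaled without erythroid genes) and at 148.9 and 122 at E14.5 (-0.28). The weakly expressed *Klc3* was at 1.72 and 3.54 at E11.5 (1.001) and at 1.13 and 0.835 at E14.5 (-0.40), and *Sybu*, an adaptor for syntaxin cargo, was at 1.004 and 1.35 at E14.5 (0.40). *Klc3* was listed at E14.5 only through its wildtype value.

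**Figure D5:**
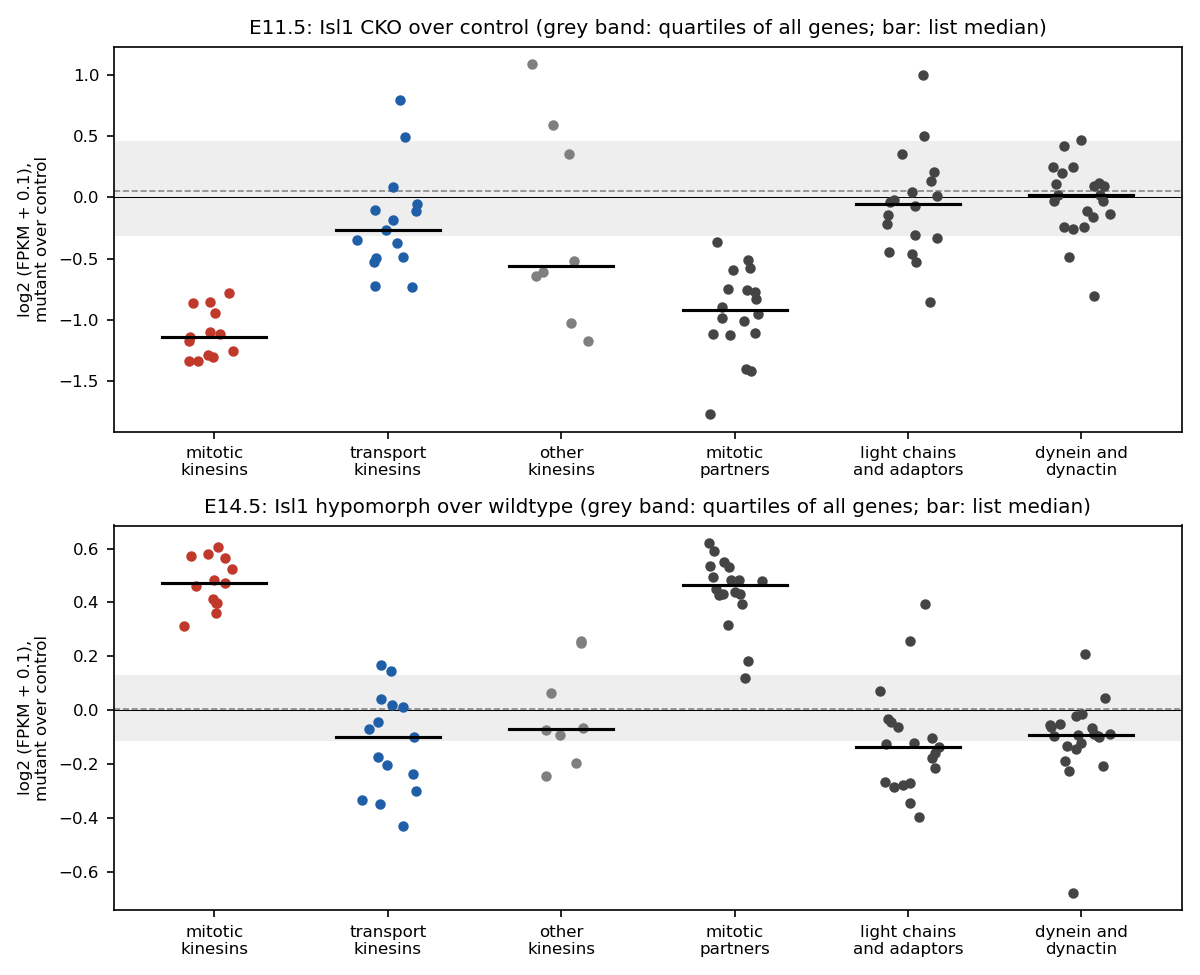
Log2 ratio of FPKM + 0.1, mutant over control, for each gene of the 6 lists at E11.5 (top) and E14.5 (bottom), with the list median as a black bar and the median and quartiles of all genes as the dashed line and the grey band. The medians of mitotic kinesins (-1.14, 0.47) and of their partners (-0.92, 0.47) lie outside the grey band at both stages. That of other kinesins (-0.56) lies below it at E11.5, and that of light chains and adaptors (-0.14) lies just below it at E14.5.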

How the data were processed

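Libraries were prepared from polyA RNA of pooled sympathetic ganglia. For the deposited FPKM the authors aligned reads to the mm9 genome with TopHat, kept uniquely mapped reads and ran cuffdiff, with both libraries of a genotype merged into 1 value. The submitters' processing notes name TopHat 1.3.1, Cuffdiff 1.3.0 and a fly genome build, whereas the study's methods name later versions and mm9. All genes in the deposited tables had an FPKM of 1 or more in at least 1 genotype, and every column was assigned to a group. The tables also hold cuffdiff's log2 fold changes and p-values, which were not used.

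Log2 ratios of FPKM + 0.1 were computed for all genes, and a list was described by its counts past 1.5-fold and 1.2-fold and its median, beside all genes. The members, lists and thresholds were chosen with earlier results of these data known. Named were all mitotic and transport kinesins, other kinesins 1.5-fold apart at either stage with *Kif2a*, *Kif21a* and *Kif21b*, and of each further list the 2 most abundant genes, the 2 with the largest absolute log2 ratio per stage, and *Cenpe*. All 36 kinesins matched an mm9 gene. *Kif2b*, *Kif4a*, *Kif6*, *Kif9*, *Kif12*, *Kif17*, *Kif19b*, *Kif25*, *Kif27* and *Kif28* were not analysed here. Alternatives were pseudocounts of 1 and 0.01, a minimum FPKM of 5, centring on the median, rescaling to equal sums without erythroid genes, thresholds of 2-fold and 1.2-fold, and lists with members removed or added. The steps were tested on simulated data and run with Python 3.11.15, numpy 2.4.6, pandas 2.3.3 and matplotlib 3.10.9.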

Additional observations from a re-analysis of the deposited data

How the results depend on the processing

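Under the alternatives tried, the median of a list changed direction only for dynein and dynactin at E11.5. It was 0.02, and -0.006 with a minimum FPKM of 5. When centred on the median it was -0.03, and when rescaled without erythroid genes it was -0.22. Among the named genes, only *Kifap3*, *Arl8a* and *Dynlrb1* changed sign. The counts at 1.5-fold depended on the threshold and on scaling as follows, given as counts of genes lower or higher in mutant ganglia. At E11.5, transport kinesins (2 lower, 1 higher) came to 6 and 0 when rescaled without erythroid genes, to 0 and 0 at 2-fold and to 8 and 2 at 1.2-fold. The number higher was 0 with kinesin-1, kinesin-2, *Kif1a* and *Kif1b* alone and 2 with *Kif2a*, *Kif21a* and *Kif21b* added. Other kinesins had 2 lower in place of 4 at 2-fold, and in place of 2 higher they had 1 with a pseudocount of 1, when centred on the median, when rescaled and at 2-fold, and 0 once a minimum FPKM of 5 was set. Mitotic partners had 7 lower at 2-fold in place of 15. Light chains and adaptors (1 lower, 1 higher) had 4 lower when rescaled, 0 lower at 2-fold, 6 lower and 3 higher at 1.2-fold, and 0 higher with an FPKM of 5 or more. Dynein and dynactin (1 lower, 0 higher) had 2 lower when rescaled, 0 lower at 2-fold, and 2 lower and 2 higher at 1.2-fold. At E14.5, mitotic kinesins (1 higher) had 0 with a pseudocount of 1 and at 2-fold, 4 when rescaled and 13 at 1.2-fold. Transport kinesins (0 lower) had 4 lower at 1.2-fold. Partners (2 higher) had 1 with a pseudocount of 1, 0 at 2-fold and 16 at 1.2-fold. Light chains and adaptors (0 and 0) had 6 lower and 1 higher at 1.2-fold. Dynein and dynactin (1 lower) had 0 with a pseudocount of 1, with an FPKM of 5 or more and at 2-fold. For each change of threshold, pseudocount or list the alternative itself sets the count, and for the rescaling the cause was not tested.

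No paired analysis was possible because the deposited columns combine both libraries of a genotype, and for the same reason a fit without 1 of the libraries does not exist. The tables give no read numbers, so neither depth nor counting error is known, and a difference of the size seen at E14.5 was not set against the spread between libraries.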

Other observations

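Cytoplasmic dynein and its activator dynactin, which carry cargo in the direction opposite to most transport kinesins, lay near the median of all genes at E11.5. Of 21 subunits and cofactors 1 was at least 1.5-fold lower and 0 were higher in CKO ganglia, beside 12.9% and 18.9% of all genes. The median log2 ratio was 0.02. It was -0.006 with a minimum FPKM of 5, -0.03 when centred on the median, and -0.22 when rescaled without erythroid genes. The lower gene was *Dync1li2*, a light intermediate chain that binds cargo adaptors. Its FPKM was 32.8 in control and 18.7 in CKO ganglia (-0.81). *Dync1h1*, the heavy chain that holds the motor, was at 78.1 and 55.6 (-0.49), close to the ratio of *Kif1a*. The most abundant members were *Dynlrb1*, a light chain, at 239 and 255 (0.10, or -0.14 when rescaled) and *Dync1i2*, an intermediate chain, at 143 and 140.3 (-0.03).

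At E14.5 the median log2 ratio was -0.09, within the quartiles of all genes (-0.11 and 0.13). Of the 21 ratios 19 were below 0, beside 49.3% of all genes. In hypomorphic ganglia 1 of the 21 was at least 1.5-fold lower, beside 2.12% of all genes. The gene was *Dync1i1*, the intermediate chain enriched in neurons, at an FPKM of 3.02 in wildtype and 1.85 in hypomorphic ganglia (-0.68), and at E11.5 it was at 1.23 and 1.74 (0.46). *Dync1i2* was at 168 and 157 (-0.10), *Dynlrb1* at 251 and 235 (-0.09), *Dync1li2* at 54.9 and 51.2 (-0.10) and *Dync1h1* at 134 and 115 (-0.23).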
